A study of Homo sapiens with 35 samples.

Results

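Transcripts of 10 genes of heme breakdown and iron handling were followed in RPMI-8226, a myeloma line long established in culture, as its cells recovered from a pulse of carfilzomib, an irreversible inhibitor of the proteasome. The members were HMOX1 and HMOX2 (heme oxygenases), BLVRA and BLVRB (biliverdin reductases), FTH1 and FTL (heavy and light ferritin chains), NCOA4 (the ferritin cargo receptor), TFRC (transferrin receptor), SLC40A1 (ferroportin) and IREB2 (an iron regulatory protein). They were chosen by gene symbol from the protein-coding entries of the count table, 10 of 19665, and all 10 had counts and passed the filter on low counts. Cells were exposed to 750 nM carfilzomib for 1 h, and libraries of their RNA were made at 7 time points (days 0, 1, 2, 4, 6, 8 and 10), 5 subcultures at each, 35 libraries in total. The labels list carfilzomib for every library, but the study's methods place the collection of day 0 before the drug, and day 0 was taken as untreated. No genetic change was made to the cells. The methods describe fresh medium at intervals of 48 h, and samples from day 2 on were taken just before a renewal. The density of the cultures was reset on days 6 and 8. The series holds no library of untreated cells from a later day, so each comparison with day 0 also spans time in culture. In the study, viable cell numbers were lowest on day 2 and regained their starting level by day 6. The share of apoptotic cells was highest on day 4. The part of cell death, survival of a subset of cells, culture time, medium age and density in the differences was not tested. The model is limited to 1 cell line, and the sources differ on the replicates. The methods derive all subcultures from 1 culture, in which case the SE and Q values below cover culture, library preparation and sequencing only, whereas legends of the study call the same data independent experiments.

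Heme oxygenase opens the heme ring and releases ferrous iron, carbon monoxide and biliverdin, which biliverdin reductase turns into bilirubin. Iron is kept in a hollow shell of ferritin heavy chains, which oxidize it, and light chains, which favor its deposition; NCOA4 delivers this shell to the lysosome, the transferrin receptor imports iron and ferroportin exports it. Some of these genes are controlled at the level of transcription through antioxidant response elements, where NRF2 (encoded by NFE2L2) activates and BACH1 represses, and several messages carry iron-responsive elements, hairpins to which iron regulatory proteins bind. Bound near the 5′ end, these proteins block translation, and in the 3′ untranslated region (UTR) of TFRC they protect the message from decay. Plasma cells and myeloma cells make large amounts of secretory protein and depend on the proteasome.

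The iron-responsive hairpins are shown because the members that carry them differ in their place, the 5′ UTR or, in TFRC, the 3′ UTR. The annotated transcripts were searched for a 17-base shape. It was a C, a stem strand, the loop CAGUG with A, C or U after it, and a strand pairing with the first. G-U pairs were allowed. Among the members, FTH1, FTL, SLC40A1 and TFRC had it and no other did, and the same shape occurred in 226 of 19676 genes (1.15%). The sequences are RNA, 5′ to 3′, from the GENCODE 44 transcripts of GRCh38. Capitals mark CAGUG, and the base after it also belongs to the loop. FTH1 has its copy at chr11:61967580-61967596 on the minus strand, FTL at chr19:48965341-48965357 on the plus strand and SLC40A1 at chr2:189580667-189580683 on the minus strand, each in the 5′ UTR. The 4 copies of TFRC lie in the 3′ UTR on the minus strand, at chr3:196050985-196051001, chr3:196050581-196050597, chr3:196050516-196050532 and chr3:196050469-196050485, in the order of the message.
FTH1: cuucaaCAGUGcuugga
FTL: cuucaaCAGUGuuugga
SLC40A1: cagcuaCAGUGuuagcu
TFRC copy 1: cggaagCAGUGccuucc
TFRC copy 2: cgggagCAGUGucuucc
TFRC copy 3: cggagaCAGUGaucucc
TFRC copy 4: cgggaaCAGUGuuuccc

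Antioxidant response elements were searched for as the letters TGACTCAGC on either strand, from 250 to 10000 bases upstream of each annotated gene start. This word is 1 form of the wider TGACNNNGC, and it contains TGACTCA, the letters of an AP-1 site, so that the searches overlap. HMOX1 held 4 copies, and no other of the 20038 genes searched held as many. BLVRA, FTH1 and FTL held 1 copy each, as at least 1 was present in 12.7% of genes, and the other 6 members held none. The wider TGACNNNGC was present upstream of 96.2% of genes and in 13.3% of 35116 RefSeq promoters of 300 bases, whereas TGACTCAGC was present in 0.561% of these promoters. RefSeq promoters (GRCh38.p14) were matched for 8 of the 10 members, and those of HMOX1 and FTH1 were not. For SLC40A1 and IREB2 the annotated gene start lies upstream of the RefSeq promoter, and bases between the searched stretches were covered by neither search. Of the matched promoters, an alternative one of NCOA4 held TGACNNNGC. The windows are given 5′ to 3′ on the strand of the gene, from GRCh38, with the copies in capitals, where GCTGAGTCA is the reverse complement of TGACTCAGC. They lie at chr22:35372007-35372126 and chr22:35377144-35377176 (HMOX1, plus strand), chr7:43756773-43756805 (BLVRA, plus strand), chr11:61972031-61972063 (FTH1, minus strand) and chr19:48963930-48963962 (FTL, plus strand). A match of letters is a description and not a bound site.
HMOX1 distal: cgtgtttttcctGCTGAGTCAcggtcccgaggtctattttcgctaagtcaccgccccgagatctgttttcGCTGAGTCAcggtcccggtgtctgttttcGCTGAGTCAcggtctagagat
HMOX1 proximal: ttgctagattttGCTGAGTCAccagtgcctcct
BLVRA: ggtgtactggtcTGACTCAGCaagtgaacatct
FTH1: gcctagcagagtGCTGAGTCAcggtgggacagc
FTL: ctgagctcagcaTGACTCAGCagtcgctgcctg

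**Figure D1:**
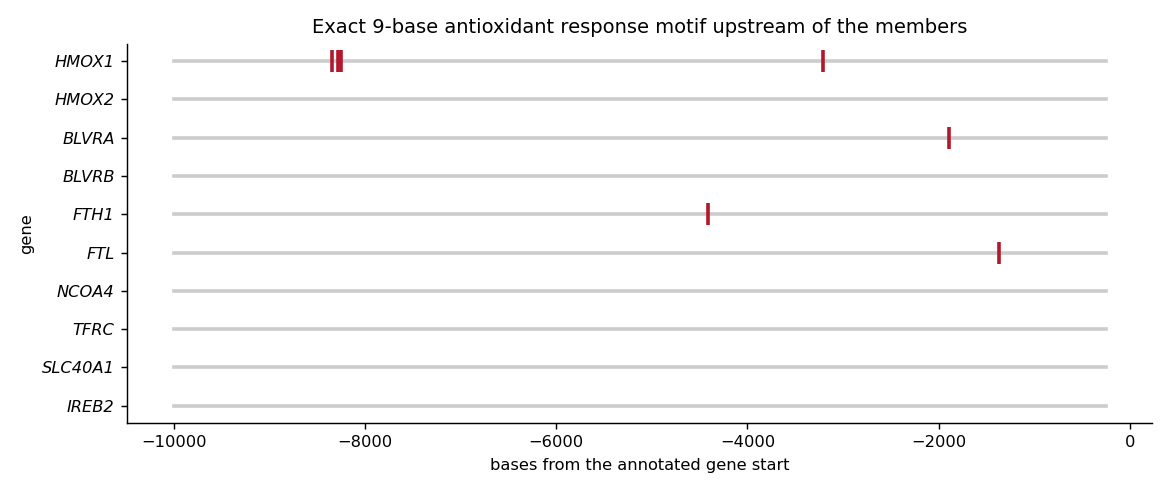
Position of each copy of the 9-base motif (red ticks, either strand) in bases from the annotated gene start, with a grey line for the searched stretch of 250 to 10000 bases upstream of each of the 10 genes. HMOX1 has 3 copies that begin 8247 to 8334 bases upstream and 1 that begins 3197 bases upstream, while BLVRA, FTH1 and FTL have 1 each.

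Libraries held 6519392 to 10962890 estimated counts. Of the protein-coding entries, 17999 had a count in any library and were tested. Of 9 plasma cell markers, 9 passed the filter on low counts, and their summed level in CPM (counts scaled to library size) was 6371 to 7281 on day 0, 2590 to 2946 on day 1 and 7122 to 8516 on day 10. JCHAIN, the joining chain of antibodies, made up most of the spread in this sum, with 1283 to 6355 CPM over the 35 libraries. Other markers also moved, with MZB1 at 199 to 724, CD38 at 62.2 to 275 and TNFRSF17 at 12 to 86 CPM. IRF4 spanned 292 to 574, SLAMF7 11.2 to 29.2, XBP1 370 to 498, SDC1 210 to 362 and PRDM1 68 to 106 CPM. Of 5 monocyte and macrophage markers, none passed, their sum reached at most 2.21 CPM in any library and CD163 had no count. Of the others, 2 of 3 B cell, 1 of 3 T cell, 2 of 4 erythroid and 0 of 3 stromal markers passed, with sums of at most 16.9, 5.24, 6.06 and 1.58 CPM, the erythroid sum being 0.157 to 1.03 CPM on day 1 and 2.52 to 5.88 CPM on day 2. These sums moved with the days, and their part in the members' changes was not tested.

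On day 1, 9 of the 10 members were higher than on day 0 and none was lower, at Q ≤ 0.05 in edgeR's quasi-likelihood test with Benjamini-Hochberg adjustment. Of all tested entries, 25.4% were higher and 27.3% were lower on that day. Of the members, 6 also rose more than 2-fold (HMOX1, BLVRB, FTL, BLVRA, FTH1 and TFRC), against 7.27% of all entries. The median log2 fold change of the members was 1.18, beside -0.06 for all tested entries. Because the members were chosen with earlier results of these data known, their excess over all entries is a description. On day 2, 7 were higher (23.2% of all entries) and FTH1 was lower (24.4%), with 4 more than 2-fold higher (6.32% of all entries). On day 4, 5 were higher (19% of all entries) and FTH1 and TFRC were lower (20.1%). On day 6, 3 were higher (17.5%) and the same pair was lower (17%). On day 8, 5 were higher (18.2%) and FTH1 and TFRC were lower (18.6%). HMOX1 was the member more than 2-fold higher on days 4, 6 and 8, against 4.12%, 3.18% and 3.6% of all entries. On day 10, BLVRA and IREB2 were higher (16.1%) and FTH1 and TFRC were lower (15.8%), so that the members' shares of higher and lower calls stood near those of all entries. The median of the members fell from 0.64 on day 2 to 0.16, 0.07, 0.23 and -0.01 on days 4, 6, 8 and 10. In bulk RNA, fewer cells expressing a gene and less of its RNA per cell cannot be told apart.

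**Figure D2:**
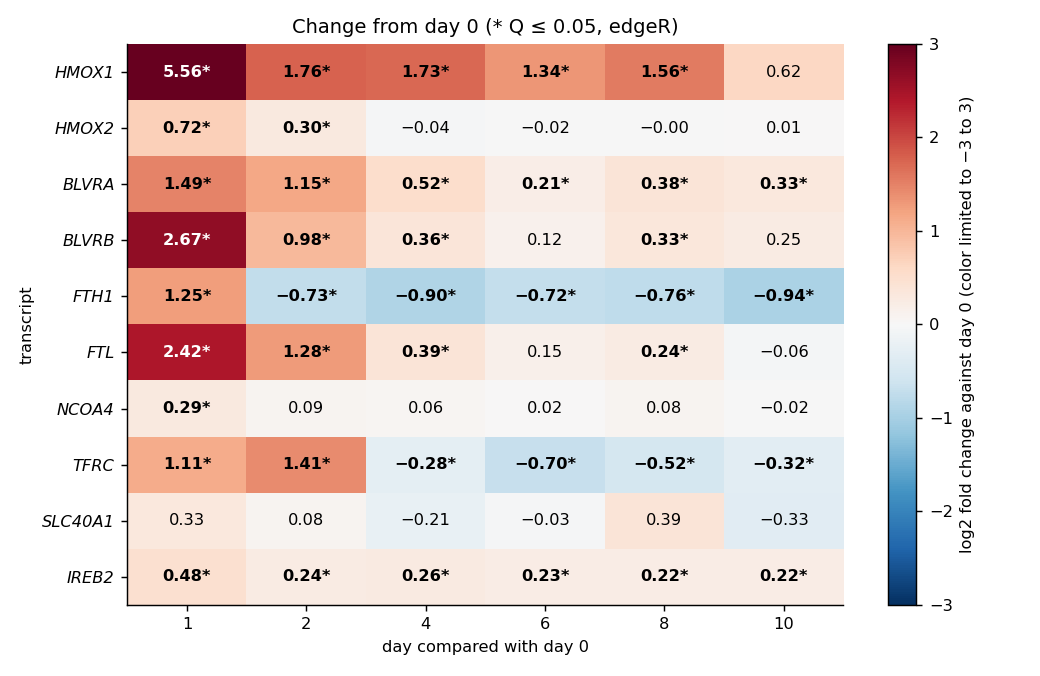
Log2 fold change of each member against day 0, by day, with an asterisk and bold type at Q ≤ 0.05 (edgeR, 5 libraries per day, color limited to −3 to 3). Day 1 is higher for 9 of 10 members, whereas FTH1 is lower from day 2 and TFRC from day 4.

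HMOX1 (GRCh38 chr22:35380361-35394214, plus strand), the inducible heme oxygenase, stood at 3.66, 4.28, 1.97, 4.61 and 5.39 CPM in the 5 day 0 libraries, in order of replicate number. On day 1 the libraries held 187, 184, 182, 222 and 158 CPM. All day 1 libraries were far above all day 0 libraries, and the fold change was 47.1 (log2 5.56 ± 0.18 SE, Q = 2.55e-27). The day 0 level rested on 11 to 28 counts per library, which limits the precision of this fold.

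On day 2 HMOX1 held 10.6, 14.6, 10.8, 20.1 and 11.3 CPM, 13.9-fold below day 1 (Q = 2.21e-24). The means of days 4, 6 and 8 were 13.1 ± 0.822, 10.0 ± 2.40 and 11.6 ± 3.11 CPM (SD, n = 5), which was 3.31-fold, 2.52-fold and 2.95-fold over day 0, with each library above each day 0 library. Days 2, 4, 8 and 6, in order of level, did not differ from their neighbors beyond the threshold (Q = 0.964, 0.712 and 0.643). On day 10 the libraries held 6.51, 6.11, 4.52, 7.03 and 6.10 CPM, below each day 8 library (1.93-fold, Q = 8.84e-04). These values overlapped those of day 0, and the difference from day 0 missed the threshold (log2 0.62 ± 0.25, Q = 0.0556). That last call depends on the processing, since Q lay between 0.0223 and 0.0495 in 6 of 7 other settings, and also passed without day 10 replicate 3 (Q = 0.0353) or without day 0 replicate 5 (Q = 0.0287).

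HMOX2 (chr16:4474690-4510347, plus strand), the constitutive heme oxygenase, rose on days 1 and 2. Its day 0 libraries held 53.4, 44.3, 49.5, 54.1 and 56.0 CPM and its day 1 libraries 87.5, 91.0, 77.0, 85.2 and 83.5 CPM, a 1.65-fold rise without overlap (log2 0.72 ± 0.07, Q = 9.19e-12). On day 2 the rise was 1.23-fold (Q = 4.43e-04). From day 4 its mean lay between 50.2 and 51.8 CPM, beside 51.5 CPM on day 0, with log2 differences of -0.04, -0.02, -0.00 and 0.01 (SE 0.07 each) that did not pass the threshold.

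Both biliverdin reductases rose, by unequal factors. BLVRA (chr7:43758680-43807342, plus strand), which reduces the biliverdin isomer that heme oxygenase makes, held 27.7, 32.2, 29.7, 33.9 and 29.8 CPM on day 0. It held 72.5, 91.6, 87.7, 86.4 and 91.0 CPM on day 1 and 74.1, 71.0, 68.5, 61.2 and 65.3 CPM on day 2, which was 2.80-fold and 2.23-fold over day 0 (Q = 6.87e-20 and 3.35e-16). The library of day 1 replicate 1 stood below the other 4 of that day and within the range of day 2.

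BLVRA was still higher on day 10, at 37.6, 41.2, 39.4, 37.3 and 36.1 CPM, each above each day 0 library (1.25-fold, Q = 0.00181). Day 4 stood 1.44-fold (Q = 1.23e-06) and day 8 1.30-fold (Q = 2.29e-04) over day 0. On day 6 the difference was at the threshold (log2 0.21 ± 0.08, Q = 0.0499). It missed the threshold with RLE factors (Q = 0.0637), in DESeq2 (Q = 0.0684) and in a fit of both days alone (Q = 0.0811). It also did so without any 1 of 7 of the 10 libraries, namely day 0 replicates 1, 3 or 5 or day 6 replicates 2, 3, 4 or 5 (Q = 0.0723 to 0.148).

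BLVRB (chr19:40447765-40465764, minus strand), a flavin reductase that reduces other biliverdin isomers, held 23.3, 23.8, 17, 19.8 and 21.6 CPM on day 0 and 120, 132, 136, 156 and 131 CPM on day 1. The libraries did not overlap, and the rise was 6.36-fold (log2 2.67 ± 0.09, Q = 1.2e-25). By day 2 it was down to 41.9 ± 2.74 CPM (SD, n = 5), 1.98-fold over day 0 (Q = 2.54e-11). Days 4 and 8 were 1.29-fold (Q = 0.00445) and 1.26-fold (Q = 0.0106) over day 0 with overlapping libraries, and without day 0 replicate 3 the call of day 8 was lost (Q = 0.0532). Day 6 (log2 0.12, Q = 0.411) did not pass the threshold. Day 10 (log2 0.25, Q = 0.0690) did not either, but passed without day 0 replicate 1 (Q = 0.0406), day 0 replicate 2 (Q = 0.0294) or day 10 replicate 5 (Q = 0.0414). It also passed with filterByExpr (Q = 0.0497), without factors (Q = 0.0126) and with counts summed over biotypes (Q = 0.0100).

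The balance of the reductases was tested in each library. The BLVRA to BLVRB ratio of CPM averaged 1.45 on day 0 and 0.637 on day 1, and every day 1 library was below every day 0 library (log2 difference -1.19, exact two-sided permutation p = 0.00794, adjusted over 12 tests p = 0.0136). This p is the smallest that 5 libraries against 5 can give. From day 2 the ratio was 1.48 to 1.62, and the adjusted p of the exact permutation tests was 0.274 to 0.833.

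**Figure D3:**
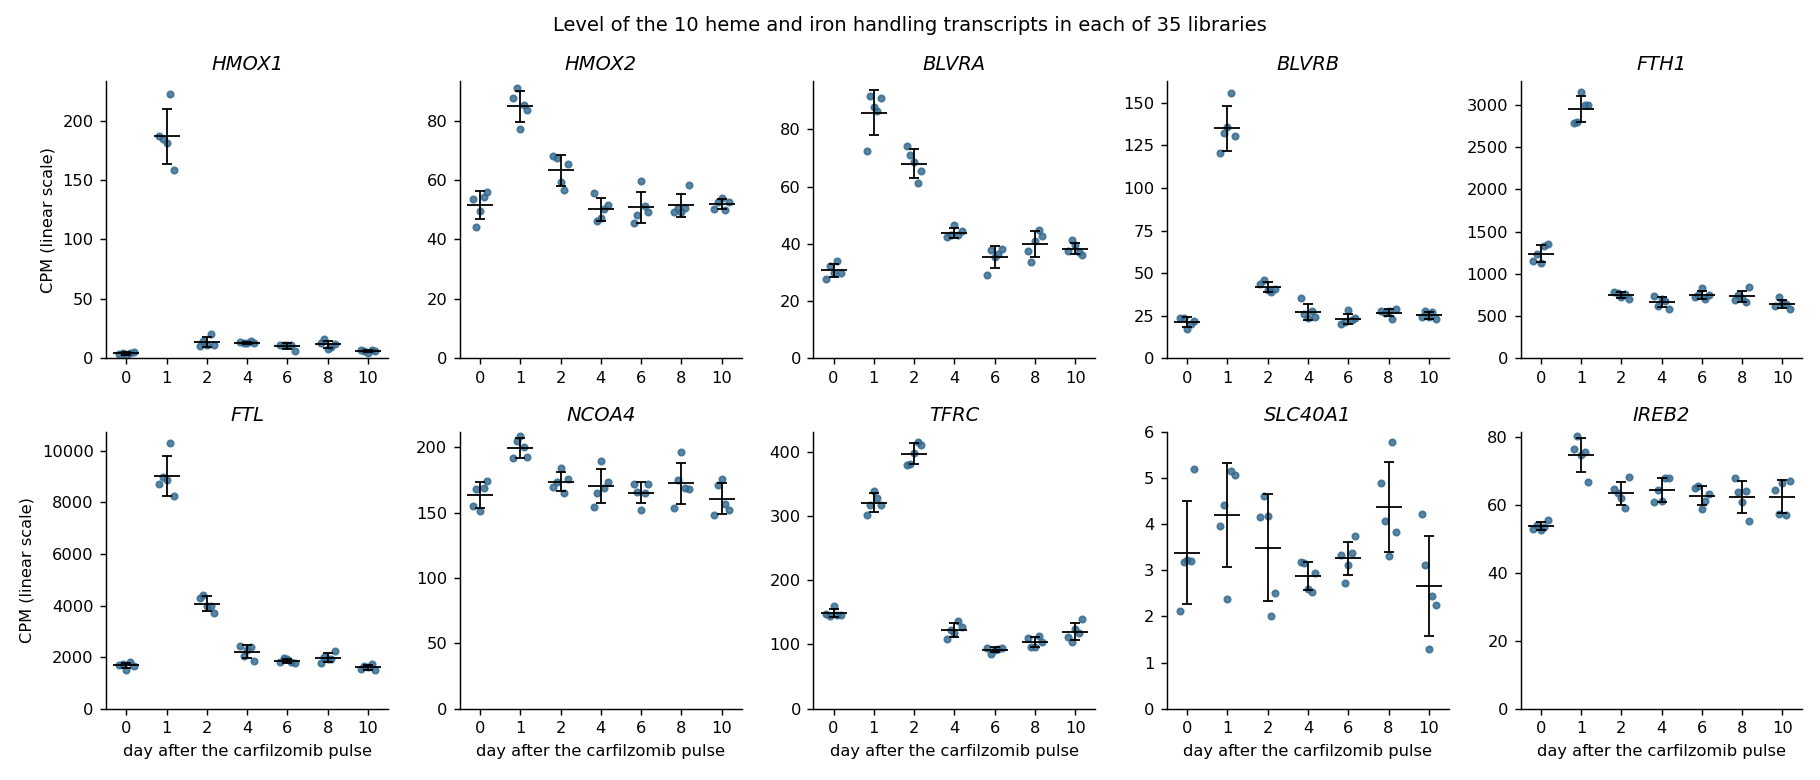
CPM of each member (linear axes from 0) by day, with a point for each of the 35 libraries and a bar and whiskers for mean ± SD of the 5 libraries of a day. HMOX1 peaks at 187 CPM on day 1, TFRC peaks on day 2 at 396 CPM, and FTH1 lies between 644 and 750 CPM from day 2, below its 1239 CPM on day 0.

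Iron storage divided after day 1. FTL (chr19:48965309-48966879, plus strand), the light chain, held 1690, 1736, 1516, 1813 and 1638 CPM on day 0 and 8699, 8966, 8863, 10292 and 8223 CPM on day 1. The libraries of the 2 days were far apart, and the rise was 5.37-fold (log2 2.42 ± 0.07, Q = 2.18e-28). On day 2 the libraries held 4293, 4413, 3989, 3967 and 3706 CPM, still 2.43-fold over day 0 (Q = 1.60e-19).

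FTL returned to its starting level in steps. It was 2205 ± 255 CPM (SD, n = 5) on day 4, 1.31-fold over day 0 (Q = 6.58e-06). Day 6 did not pass the threshold (log2 0.15, Q = 0.0947), although it did without factors (Q = 0.00538), with counts summed over biotypes (Q = 0.0420), in a fit of both days alone (Q = 0.0267) and without day 0 replicate 4 (Q = 0.0467). Day 8 stood 1.18-fold over day 0 (Q = 0.00466), and day 10 was 1612 ± 94.3 CPM, beside 1679 ± 111 CPM on day 0 (log2 -0.06 ± 0.07, Q = 0.568).

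FTH1 (chr11:61959718-61967634, minus strand), the heavy chain, rose and then stayed low. Day 0 libraries held 1157, 1235, 1124, 1324 and 1357 CPM and day 1 libraries 2792, 2804, 3156, 2998 and 3006 CPM, a 2.38-fold rise (log2 1.25 ± 0.07, Q = 3.67e-20). On day 2 they held 780, 768, 721, 760 and 705 CPM, 3.95-fold below day 1 (Q = 6.78e-26). Each of these libraries was also below each day 0 library, and the level was 1.66-fold lower than on day 0 (log2 -0.73 ± 0.06, Q = 8.54e-13).

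That lower FTH1 level persisted through the last time point. The fall from day 0 was 1.87-fold, 1.65-fold, 1.70-fold and 1.92-fold on days 4, 6, 8 and 10, without overlap on any of these days (Q = 3.71e-12 or lower). On day 10 the libraries held 613, 720, 656, 646 and 584 CPM, the lowest mean of the 7 days, but its neighbor in the order, day 4, did not differ from it beyond the threshold (Q = 0.797). By consecutive days, day 4 was 1.13-fold below day 2 (Q = 0.0393) and days 6, 8 and 10 did not differ from the time point before (Q = 0.0674, 0.885 and 0.0690).

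Because both chains changed, their ratio was compared within libraries. The ratio of FTH1 to FTL counts, which is not corrected for message length and is read only for its change, averaged 0.738 on day 0. On the 6 later days, in order, it averaged 0.328, 0.184, 0.301, 0.403, 0.369 and 0.399. Every library of every later day was below every day 0 library. The log2 differences were -1.17, -2.01, -1.29, -0.87, -0.998 and -0.89, each with the smallest p of an exact two-sided permutation test (0.00794) and an adjusted p of 0.0136. On day 1 both chains were higher and FTL by the larger factor, whereas on day 10 FTL stood near its day 0 level and FTH1 below it. Together the chains took 0.277% ± 0.0149 (SD, n = 5) of protein-coding counts on day 0. The share was 1.23% ± 0.0643, 0.5% ± 0.0250 and 0.224% ± 0.0103 on days 1, 2 and 10.

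**Figure D4:**
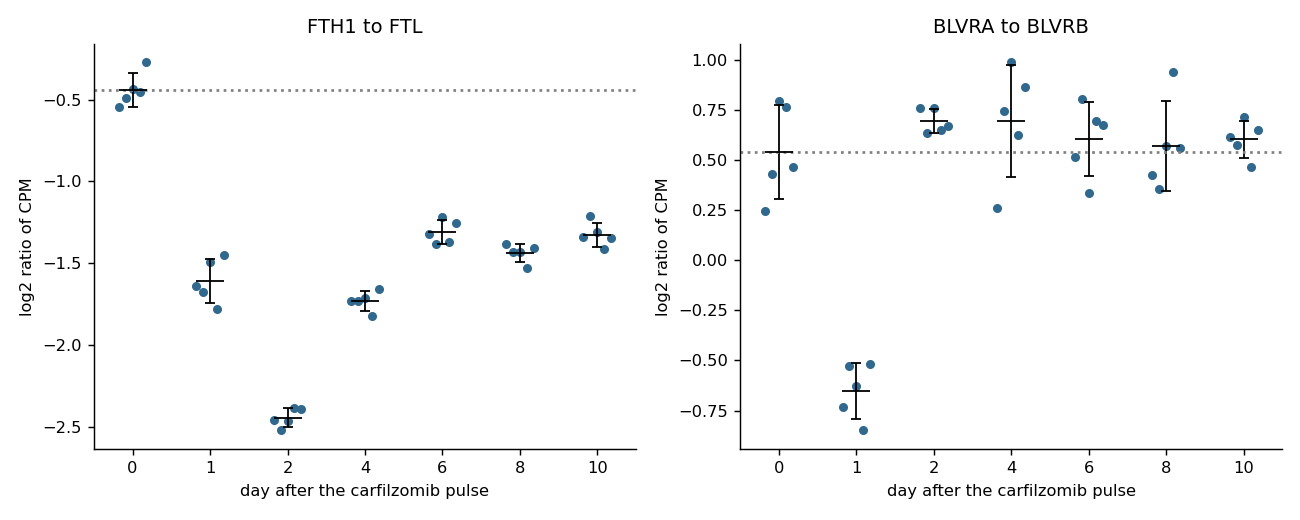
Log2 ratio of CPM of FTH1 to FTL (left) and of BLVRA to BLVRB (right) by day, with a point for each library, bars and whiskers for mean ± SD of 5 libraries and a dotted line at the day 0 mean. Every later library is below the day 0 libraries for the ferritin chains, and for the reductases this holds on day 1, with overlap on the other days.

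Ferritin genes have many processed copies in the genome, so reads could have been split among them. Symbols of FTH1 pseudogenes (4) held 43 counts over all libraries, 0.0175% of those of FTH1, and those of FTL pseudogenes (4) held 18 counts, 0.00246% of those of FTL. Copies without an entry among the counts could not be assessed, so these values cover the listed symbols only. The count table also divides a symbol by transcript biotype. FTH1 had 22.8% to 26.3% of the counts of its symbol in other biotypes on each day, mostly in an entry for transcripts subject to nonsense-mediated decay. This entry rose with the protein-coding one on day 1 (log2 1.52 ± 0.12, Q = 1.94e-13) and was lower on day 10 (log2 -0.89 ± 0.12, Q = 5.89e-07). The retained-intron entry of FTH1 held 23.0 ± 4.78 CPM on day 0 and 18.7 ± 2.88 CPM on day 1 (log2 -0.30 ± 0.25, Q = 0.450), and fell by 2.50 on the log2 scale on day 2 (Q = 1.99e-09). Reads shared by overlapping transcripts are divided by estimation, so these entries are uncertain.

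NCOA4 (chr10:46005088-46030623, minus strand), which carries ferritin to the lysosome for breakdown, held 155, 168, 152, 169 and 174 CPM on day 0 and 192, 205, 209, 200 and 193 CPM on day 1. The day 1 libraries were all higher, by 1.22-fold (log2 0.29 ± 0.06, Q = 4.75e-05). On the other days its mean was 161 to 174 CPM, with log2 differences from -0.02 to 0.09 (Q = 0.226 to 0.888). Without normalization factors, days 2 (log2 0.22, Q = 0.00124) and 4 (log2 0.17, Q = 0.0121) would have passed, and day 2 also with counts summed over biotypes (log2 0.15, Q = 0.0390).

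Iron uptake had another time course. TFRC (chr3:196012511-196082153, minus strand) held 148, 145, 160, 146 and 146 CPM on day 0, 301, 318, 339, 328 and 317 CPM on day 1 and 379, 380, 397, 414 and 410 CPM on day 2. Days 1 and 2 were 2.15-fold and 2.66-fold over day 0 (log2 1.11 ± 0.06 and 1.41 ± 0.06, Q = 1.75e-19 and 7.63e-23). TFRC was the 1 member higher on day 2 than on day 1 (1.24-fold without overlap, Q = 2.53e-05), beside 20.2% of all entries, while 8 members fell in that interval, beside 19.4%.

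TFRC then fell below its starting level. On day 4 the libraries held 108, 123, 118, 137 and 127 CPM, 3.23-fold below day 2 (Q = 1.74e-23) and 1.22-fold below day 0 (log2 -0.28 ± 0.06, Q = 2.50e-04). On day 6 they held 94.1, 85.8, 91.3, 92.7 and 95.1 CPM, 1.62-fold below day 0 (log2 -0.70 ± 0.06, Q = 4.56e-12), the lowest mean of the series. The means of days 8 and 10 were 104 ± 8.06 and 120 ± 13.5 CPM (SD, n = 5). The step from day 6 to day 8 did not pass the threshold (Q = 0.144), and that from day 8 to day 10 passed the threshold (1.15-fold, Q = 0.0312) with overlapping libraries. On day 10 each library, at 112, 105, 125, 117 and 140 CPM, was still below each day 0 library (1.24-fold, Q = 7.52e-05).

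Other entries of the TFRC symbol went against the protein-coding one on day 1. The retained-intron entry fell from 5.56 ± 1.47 to 2.72 ± 0.705 CPM (log2 -1.02 ± 0.35, Q = 0.0270), and an entry of processed transcripts fell from 2.85 ± 0.677 to 0.791 ± 0.532 CPM (log2 -1.83 ± 0.54, Q = 0.0103). Other biotypes held 6.96% ± 1.30 of the symbol's counts on day 0 and 1.23% ± 0.417, 1.23% ± 0.386 and 3.84% ± 0.359 on days 1, 2 and 10. Across the 10 symbols, 15 entries of other biotypes had counts. On day 1, 3 of them were higher, beside 10.6% of the 65717 entries of all biotypes, namely those of BLVRB and FTH1 for nonsense-mediated decay and that of HMOX1 with a retained intron, the last with 1 count over the day 0 libraries and 23 over those of day 1.

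SLC40A1 (chr2:189560590-189583758, minus strand), the exporter, had few counts, 8 to 43 per library. Day 0 libraries held 2.11, 3.17, 3.22, 3.21 and 5.2 CPM and day 1 libraries 3.97, 4.41, 2.37, 5.15 and 5.07 CPM, which overlapped (log2 0.33 ± 0.26, Q = 0.319). Its means over the 7 days were 2.67 to 4.38 CPM, no neighbors in this order differed past the threshold, and no comparison with day 0 passed (Q = 0.263 to 0.982). Day 10, the lowest mean, was 1.64-fold below day 8, the highest, with overlapping libraries (log2 -0.72 ± 0.26, Q = 0.0794 in edgeR's test). DESeq2 gave Q = 0.0484 for that comparison. With an SE of about 0.26 on the log2 scale, small changes were not detectable at this depth.

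IREB2 (chr15:78437431-78501453, plus strand), one of the proteins that read the hairpins shown above, was higher than on day 0 on each later day. Day 0 libraries held 52.7, 54.0, 52.6, 53.5 and 55.6 CPM and day 1 libraries 76.3, 80.1, 74.5, 75.5 and 66.6 CPM, a 1.39-fold rise without overlap (log2 0.48 ± 0.06, Q = 7.56e-09). Means from day 2 to day 10 were 62.4 to 64.4 CPM, 1.16-fold to 1.2-fold over day 0 (Q = 5.15e-04 to 0.00519). On day 8, 1 library at 55.2 CPM was within the range of day 0, and on the other days each library was above it. Days 4, 2, 6, 10 and 8, in order of level, did not differ between neighbors past the threshold.

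Each day was also compared with the time point before it. From day 2 to day 4, 6 members fell (HMOX2, BLVRA, BLVRB, FTH1, FTL and TFRC), beside 16.7% of all entries. From day 4 to day 6, BLVRA, FTL and TFRC fell, beside 5.98%. From day 6 to day 8, 0 members passed the threshold in edgeR's test, and 0 in DESeq2, beside 1.03% of entries higher and 1.53% lower. From day 8 to day 10, TFRC rose (5.08% of entries) and HMOX1 and FTL fell (4.97%).

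The other genes of the pathway were taken from 6 lists with 58 genes, of which 57 had counts. On day 1, 27 were higher (25.4% of all entries) and 19 lower (27.3% of all entries), with a median log2 fold change of 0.10, beside -0.06 for all entries. On day 10, 8 were higher (16.1% of all entries) and 13 lower (15.8%), with a median of -0.03, beside -0.02. The lower share on day 1 and the higher share on day 10 were near those of all entries. The same percentages are the background for each list below, and with 6 to 14 genes a list's counts are a description. In heme synthesis, 6 of 9 genes were higher and 1 was lower on day 1. UROD, uroporphyrinogen decarboxylase, rose from 23.0 ± 2.86 to 64.2 ± 6.49 CPM (log2 1.49 ± 0.10, Q = 7.01e-17). PPOX, protoporphyrinogen oxidase, fell on days 1 (log2 -0.80 ± 0.12) and 10 (log2 -0.33 ± 0.11, Q = 0.0210). CPOX, coproporphyrinogen oxidase, was higher on day 10 (log2 0.50 ± 0.08, Q = 4.79e-06). In heme transport and binding, 5 of 9 were higher and 2 lower on day 1. ABCB6, a porphyrin transporter, rose from 1.54 ± 0.856 to 13.2 ± 1.68 CPM (log2 3.11 ± 0.58, Q = 1.43e-05). ABCB10, a mitochondrial transporter, was still higher on day 10 (log2 0.22 ± 0.06, Q = 0.00662), and HPX, which codes for hemopexin, had 0.220 ± 0.301 CPM on day 0 and no count on day 1, for which no fold is given.

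Of 12 genes for iron uptake, reduction, export and systemic control, 2 were higher (25.4% of all entries) and 6 lower (27.3%) on day 1. Of the 12, 9 passed the filter on low counts. CP, HEPH and HFE, among the 6 lower, were near the floor, with 0.275, 1.04 and 2.22 CPM on day 0. LTF, lactotransferrin, fell from 243 ± 10.9 to 42.3 ± 1.63 CPM (log2 -2.52 ± 0.07, Q = 1.24e-29) and was at 204 ± 9.33 CPM on day 10 (log2 -0.25 ± 0.06). CYBRD1, a ferric reductase, was higher on days 1 (log2 0.45 ± 0.18, Q = 0.0325) and 10 (log2 0.57 ± 0.18, Q = 0.0108). Of 6 tested genes for iron sensing and cytosolic delivery, 4 were higher and 2 lower on day 1, the latter near the share of all entries. GLRX3, a cytosolic iron-sulfur carrier, rose from 21.6 ± 2.91 to 60.7 ± 6.36 CPM (log2 1.48 ± 0.09, Q = 1.24e-17). FBXL5, the ligase subunit that marks iron regulatory proteins for the proteasome, fell from 26.4 ± 2.80 to 16.6 ± 5.43 CPM on day 1 (Q = 0.00184) and stayed at 14.3 ± 1.81 CPM on day 10 (log2 -0.88 ± 0.18, Q = 1.81e-04).

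Of 14 genes for mitochondrial iron import and iron-sulfur assembly, 8 were higher (25.4% of all entries) and 4 lower (27.3%, a like share) on day 1, and 4 were higher (16.1%) and 5 lower (15.8%) on day 10. BOLA3, an iron-sulfur assembly factor, rose from 9.31 ± 1.2 to 30.3 ± 2.32 CPM on day 1 (log2 1.70 ± 0.11, Q = 8.80e-17). IBA57, which acts late in the assembly of these clusters, fell by 1.30 and 1.02 on the log2 scale on days 1 and 10. NFS1, the cysteine desulfurase, was higher on day 10 (log2 0.80 ± 0.14, Q = 9.65e-06). Of 7 CNC-bZIP factors and partners, 2 were higher and 4 lower on day 1, 6 were lower on day 2 (24.4% of all entries), and 4 were lower on day 10. KEAP1, the adaptor that targets NRF2 for breakdown, rose on day 1 (log2 0.81 ± 0.06, Q = 1.03e-15). NFE2L1, which codes for the NRF1 factor of proteasome genes, fell from 813 ± 21.7 to 355 ± 6.61 CPM on day 1 (log2 -1.2 ± 0.06, Q = 2.24e-20). It was lower still on day 2, at 164 ± 7.52 CPM (log2 -2.31 ± 0.06, Q = 6.06e-29), and at 412 ± 32.5 CPM on day 10. NFE2L2 had 79.8 ± 4.56 CPM on day 0 and 73.1 ± 4.34 CPM on day 1 (log2 -0.12 ± 0.08, Q = 0.188). On day 2 it fell to 45.0 ± 4.81 CPM (log2 -0.82 ± 0.08, Q = 1.09e-11). It was also lower on day 4 (log2 -0.28 ± 0.08, Q = 0.00293) and day 10 (log2 -0.28 ± 0.08, Q = 0.00505), whereas days 6 and 8 did not pass the threshold. BACH1 was named after its values were seen, because its product represses HMOX1. It fell from 178 ± 7.46 to 138 ± 6.22 CPM on day 1 (log2 -0.37 ± 0.06, Q = 2.84e-07). By day 2 it was at 72.7 ± 3.18 CPM (log2 -1.29 ± 0.06, Q = 2.69e-22). BACH1 was also lower on days 4, 6, 8 and 10 (log2 -0.92, -0.79, -0.87 and -0.79, Q = 2.62e-17, 4.06e-15, 2.10e-16 and 5.83e-15). The day 10 difference of HMOX1 from day 0 missed the threshold in the main fit (log2 0.62, Q = 0.0556). A link between the levels of BACH1 and HMOX1 was not tested.

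**Figure D5:**
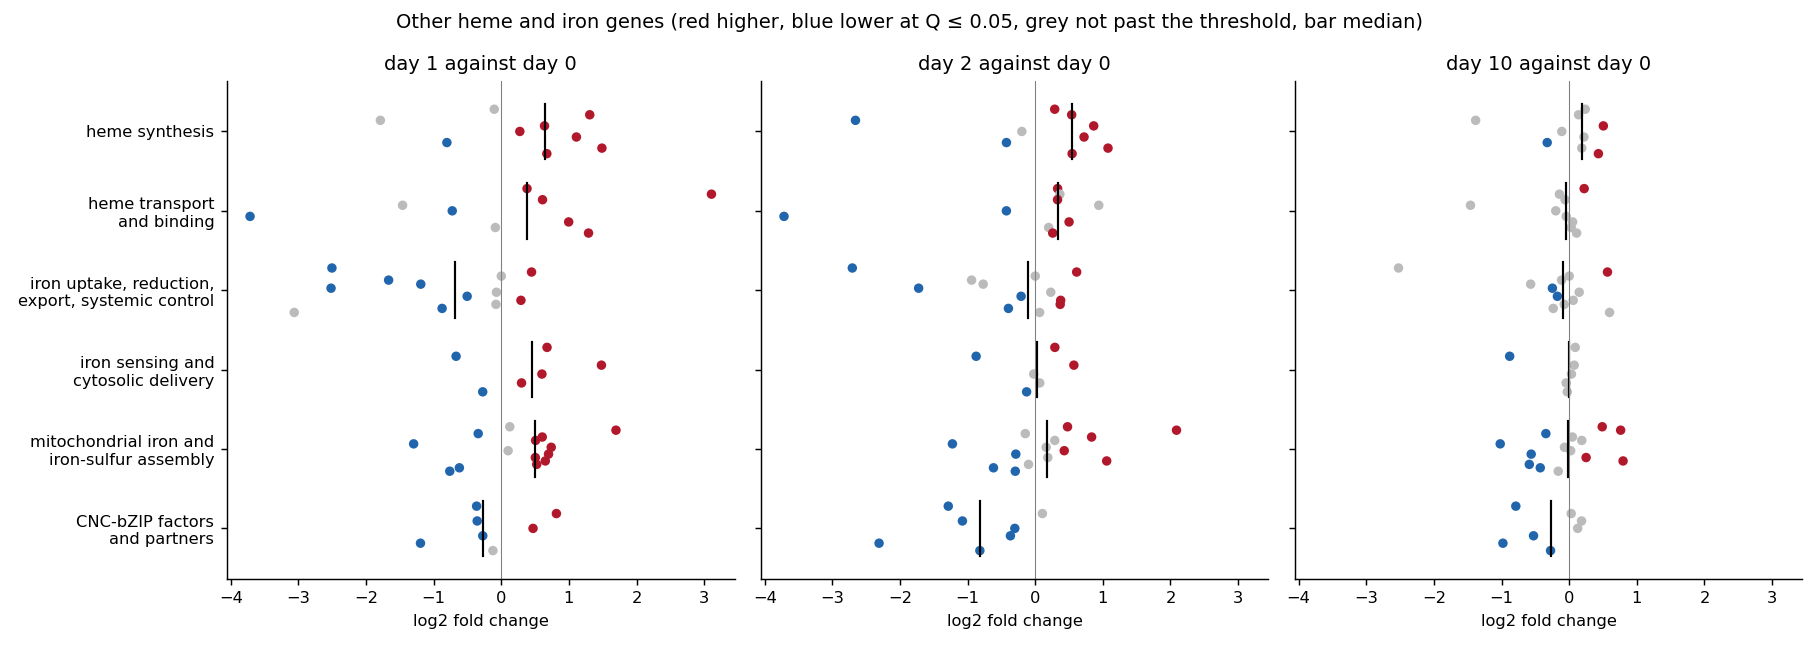
Log2 fold change against day 0 of the genes of 6 other heme and iron lists on days 1, 2 and 10, a point per gene, red if higher and blue if lower at Q ≤ 0.05 in edgeR, grey otherwise, with a bar at each list's median. On day 1, 27 genes are higher and 19 lower, and on day 10 the counts are 8 and 13.

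Genes with the most similar level across the 35 libraries were found by Pearson's r of log2 CPM, given as a description, since the libraries fall into 7 days and share the time course. For HMOX1 these were MSRB1, SOD1, PSMD4, PGD and TALDO1 (r = 0.966 to 0.967). For FTL they were HSP90AA1 and TXN (r = 0.987 each), CLTB, STARD7 and NSDHL. FTH1 was closest to PELO (r = 0.984), then RTN3, SHC1, PITHD1 and MLF2, all higher on day 1 and lower on days 2 and 10 by fitted value. TFRC was closest to NCAM1 (r = 0.971), then KIAA0100, GTF3C2, NME1 and POLR3G. For SLC40A1 the highest r was 0.579, with LLGL2, followed by TRIM47, DUSP6, ARAP1 and CORO1B.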

How the data were processed

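RNA of 35 libraries was analysed (7 days, 5 subcultures each, grouped by the day in the labels). The authors deposited estimated counts, made with Kallisto 0.44.0 on GENCODE transcripts (GRCh38.p12) corrected for GC content, and passed through tximport, which corrected for length. The values are whole numbers per symbol and biotype, without scaling to library size. Depth was 6519392 to 10962890 counts per library.

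Protein-coding entries with a count (17999) were fitted with edgeR 4.0.16 (TMM factors 0.929 to 1.08, day as a factor, quasi-likelihood test) in R 4.3.3. Q is the Benjamini-Hochberg value over all entries, called at Q ≤ 0.05. CPM divide each count by the library size times its TMM factor. SE is of the log2 fold change. Ratios used log2 CPM with a prior count of 2 and exact permutation tests over 252 assignments. P-values measure the spread between subcultures. The edgeR fit was tested on simulated counts with known changes on day 1. Entries of other biotypes were tested in a second fit of 65717 entries. Of the entries, 12301 passed filterByExpr. Positions came from GENCODE 44.

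All members were named, as were the highest and lowest called gene of each list on days 1 and 10 and the 5 genes most like HMOX1, FTH1, FTL, TFRC and SLC40A1. Members and lists were chosen with earlier results of these data known. Alternatives were filterByExpr, RLE factors, no factors, a replicate block, a fit of both days alone, DESeq2 1.42.0, counts summed over biotypes, a prior count of 0.5, pseudogene counts added, and each library left out. The labels give no sequencing batch, and none was tested. Of 70 pairs of libraries within a day, 0 were identical. The proteome and metabolome were not analysed here.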

Additional observations from a re-analysis of the deposited data

Results flagged for a closer look

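In each of 70 sets of 5 libraries (10 members on 7 days), the lowest and the highest library were compared with the rest by the size of the gap relative to the whole range, and 4 sets held a library set apart. Chance gives about 1 in 20, or 3.5 sets. HMOX1 on day 6 was at 5.74 CPM in replicate 5, below 10.7 to 11.5 CPM in the others. HMOX2 on day 8 was at 58.2 CPM in replicate 5, above 49.1 to 50.5 CPM in the others. BLVRA on day 1 was at 72.5 CPM in replicate 1, below 86.4 to 91.6 CPM in the others. TFRC on day 0 was at 159.98 CPM in replicate 3, above 145 to 148 CPM in the others. Leaving out any 1 of these libraries kept the side of the threshold of that member's comparison of that day with day 0, or, for TFRC, of its 6 comparisons with day 0.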

How the results depend on the processing

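The count of members past the threshold moved by over 1.5 times in 1 case, day 10 against day 8, where DESeq2 called 5 (HMOX1, FTH1, FTL, TFRC and SLC40A1) against 3 in edgeR. Counts over the lists stayed within 1.5 times in every setting run, and the ferritin ratio kept its direction and call. The changes of sign were all in differences that passed the threshold in no setting. With counts summed over biotypes, log2 differences from day 0 became 0.014, 7.59e-05 and 0.051 for HMOX2 on days 4, 6 and 8, 0.0031 for SLC40A1 on day 6 and 0.024 for NCOA4 on day 10. Without factors they became 0.077, 0.032 and 0.046 for HMOX2 on the same days, 0.017 for SLC40A1 on day 6, 0.00838 for FTL on day 10 and 0.043 for NCOA4 on day 10. HMOX2 on day 8 also became 0.00041 with filterByExpr, 0.0014 with RLE factors, 0.0010 in DESeq2, 0.014 in a fit of both days and 0.00053 with the replicate block. With 1 library left out, HMOX2 ranged on days 4, 6, 8 and 10 from -0.0762 to 0.0177, -0.0822 to 0.0190, -0.0331 to 0.0477 and -0.0221 to 0.0587. SLC40A1 ranged on days 2, 4 and 6 from -0.0761 to 0.270, -0.339 to 0.00733 and -0.176 to 0.171, and NCOA4 on days 6 and 10 from -0.00785 to 0.0460 and -0.0570 to 0.0172. The BLVRA to BLVRB log2 ratio ranged on days 6, 8 and 10 from -0.00802 to 0.134, -0.0620 to 0.0938 and -0.00911 to 0.128. The causes were not tested.

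Replicate numbers were shared between days. Deviations of libraries with the same number had a mean r of 0.0049 over 105 pairs (range -0.12 to 0.14), so the numbers were not taken as pairs. Of 35 libraries, 14 correlated best with their own number, where 7 would by chance. The methods name 5 subcultures for RNA and do not state whether the same ones were sampled on every day. Repeated sampling of a subculture is therefore possible, and the main tests took the libraries as unpaired. With the replicate block, members called on days 1, 2, 4, 6, 8 and 10 numbered 9, 8, 7, 5, 7 and 5, against 9, 8, 7, 5, 7 and 4 without it, the difference being HMOX1. The block was not run for the ratios, since 5 pairs cannot give a p below 0.0625. Low counts limit SLC40A1 and HMOX1 on day 0. Subcultures of 1 line limit every comparison.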
